A study of Mus musculus with 18 samples.

Results

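The myotubularins are phosphatases of membrane lipids. Probe sets, groups of short oligonucleotides designed for a transcript or a family of like transcripts, were chosen by the chip annotation: all those with Mtm1, Mtmr1, Mtmr2, Mtmr3, Mtmr4, Mtmr6 or Mtmr7 as their only symbol. They were 22 of the 36701 probe sets that are not controls, and 7 of 15964 genes. The genes had been picked because of 1 bright probe set of Mtm1, 98524_f_at, which the study listed as raised on these same arrays. Its difference between the groups is therefore described with no test, and the tests below concern the other 21 probe sets.

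RNA was taken from 3 dishes of WT FVB/N ES cells, which carry no transgene and were grown with LIF, and from 3 dishes of 743 cells, FVB/N ES cells that overexpress STAT3-MER and were grown with OHT and without LIF. In STAT3-MER the transcription factor STAT3 is fused to a changed ligand-binding domain from the estrogen receptor of the mouse, so that OHT (4-hydroxytamoxifen) switches it on. A chicken β-actin promoter drives it. Transgene, cell line and medium differ together between the groups, so their shares in a difference cannot be told apart. The dishes of a group come from 1 cell line. A p-value thus sets a difference against the spread between dishes, and not against that between cell lines. Each dish was read on 3 chips (U74Av2, U74Bv2, U74Cv2) after its RNA had been amplified in 2 rounds, and the arrays number 18. Both lines had been established on fibroblast feeder cells. Of the markers of undifferentiated ES cells, 15 were on U74Av2 and the mean signal of each was at least 200 (lowest for Klf2, 380). Feeder markers (30 genes) had a summed signal of 37182 to 86765 in WT, against 22322 to 83275 in STAT3-MER dishes, with 5 genes under 200. Signals carry no detection call, and fewer cells and less RNA per cell cannot be told apart in them.

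Active myotubularins remove the phosphate at the 3 position of the inositol ring from phosphatidylinositol 3-phosphate (PI3P) and phosphatidylinositol 3,5-bisphosphate, the lipids by which early and late endosomes recruit their proteins. Other members of the family have lost the catalytic residues and bind the active ones as partners. Loss of MTM1 causes X-linked centronuclear (myotubular) myopathy, and loss of MTMR2 a demyelinating neuropathy of the Charcot-Marie-Tooth group. Mtm1 lies on chromosome X from 71210767 to 71315413 and Mtmr1, its closest relative, at 71364760 to 71419196, with 49346 bases between them (RefSeq, GRCm38.p6). Mtmr2 is on chromosome 9, Mtmr3 and Mtmr4 on 11, Mtmr6 on 14 and Mtmr7 on 8.

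Because the transgene is a STAT factor, the 250 bases before each annotated transcript start were searched for TTCNNNGAA, the core letters of a STAT element, which read the same on both strands. RefSeq (GRCm38.p6) gave 8 such windows for 4 of the 7 genes (Mtm1, Mtmr1, Mtmr2 and Mtmr6). The letters were found in 1 of the 8, against 7.02% of all 32851 windows of this length. That window belongs to an inner start of Mtmr2, and the match lies 95 bases before the start. It is shown with the match in capitals, after the windows of 2 of the 3 Mtm1 starts, in which capitals mark CG pairs. Each is on the plus strand.
Mtm1, chrX:71210517-71210766: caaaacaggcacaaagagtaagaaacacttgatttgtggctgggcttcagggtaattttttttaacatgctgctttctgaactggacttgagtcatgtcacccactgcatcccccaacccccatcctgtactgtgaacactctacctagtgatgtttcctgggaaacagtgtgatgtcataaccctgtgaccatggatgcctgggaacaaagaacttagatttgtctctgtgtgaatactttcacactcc
Mtm1, chrX:71214756-71215005: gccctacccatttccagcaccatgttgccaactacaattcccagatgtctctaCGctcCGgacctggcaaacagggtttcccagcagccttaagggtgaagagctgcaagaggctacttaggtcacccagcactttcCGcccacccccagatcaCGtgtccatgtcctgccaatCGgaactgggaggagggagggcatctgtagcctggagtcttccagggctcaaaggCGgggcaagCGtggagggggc
Mtmr2, chr9:13765704-13765953: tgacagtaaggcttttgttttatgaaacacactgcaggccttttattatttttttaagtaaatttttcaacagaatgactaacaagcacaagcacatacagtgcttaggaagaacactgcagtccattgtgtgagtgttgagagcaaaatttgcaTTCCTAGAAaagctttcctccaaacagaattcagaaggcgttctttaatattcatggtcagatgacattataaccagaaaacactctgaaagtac
The outermost Mtm1 window holds 0 CG pairs and is 44.8% G and C, and the inner one holds 7 and is 59.2%. The third Mtm1 window overlaps the inner one and holds 13. For Mtmr1 the window holds 16 CG pairs and is 64.4% G and C. The median of all windows was 6 CG pairs and 52.4%. Which of these starts is used in the ES cells was not measured, and a match of letters is not a binding site.

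The bright Mtm1 probe set 98524_f_at read 5774, 6952 and 8463 in the WT dishes and 13095, 14677 and 11565 in the STAT3-MER dishes (signal on U74Av2, a linear scale). The groups did not overlap, with every STAT3-MER signal the higher. The means were 7063 ± 1348 and 13112 ± 1556 (SD, n = 3 dishes each), a ratio of 1.86 and a log2 fold change of 0.90 (standard error 0.21) on the log2(signal + 32) scale used throughout, where the changes of dim probe sets are understated. By mean signal it was number 128 of the 12422 probe sets of its chip. When each dish was left out in turn, the log2 fold change was 0.76 to 1.04.

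Mtm1, the myotubularin of the myopathy, has 3 further probe sets, and none of these was bright. On the same chip, 96199_at read 321, 169 and 125 in WT, against 137, 401 and 169 in STAT3-MER dishes. Its groups overlapped, with a STAT3-MER replicate at the top and a WT replicate at the bottom. The means were 205 ± 103 and 235 ± 144, a log2 fold change of 0.13 (standard error 0.45). On U74Bv2, 111331_at read 189, 233 and 226 in WT, against 336, 292 and 161 in STAT3-MER dishes. Here 2 STAT3-MER dishes lay above WT and the other below it, and the log2 fold change was 0.20 (standard error 0.40). On U74Cv2, 169980_i_at read 186, 274 and 326 in WT, against 305, 332 and 288 in STAT3-MER dishes. The log2 fold change was 0.24 (standard error 0.39), and only WT replicate 1 stood clear of the other 5 dishes. All 3 estimates were above 0, with ratios of 1.15 to 1.22, but none passed the test (limma, adjusted p = 1.0 for each). Their 95% intervals, -0.90 to 1.16, -0.70 to 1.10 and -0.64 to 1.12, were wide. Each holds both 0 and the 0.90 of the bright probe set. With 1 dish left out in turn, 96199_at ranged from -0.28 to 0.46, 111331_at from 0.014 (without STAT3-MER replicate 1) to 0.48 (without STAT3-MER replicate 3) and 169980_i_at from 0.037 (without WT replicate 1) to 0.39 (without WT replicate 3).

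**Figure D1:**
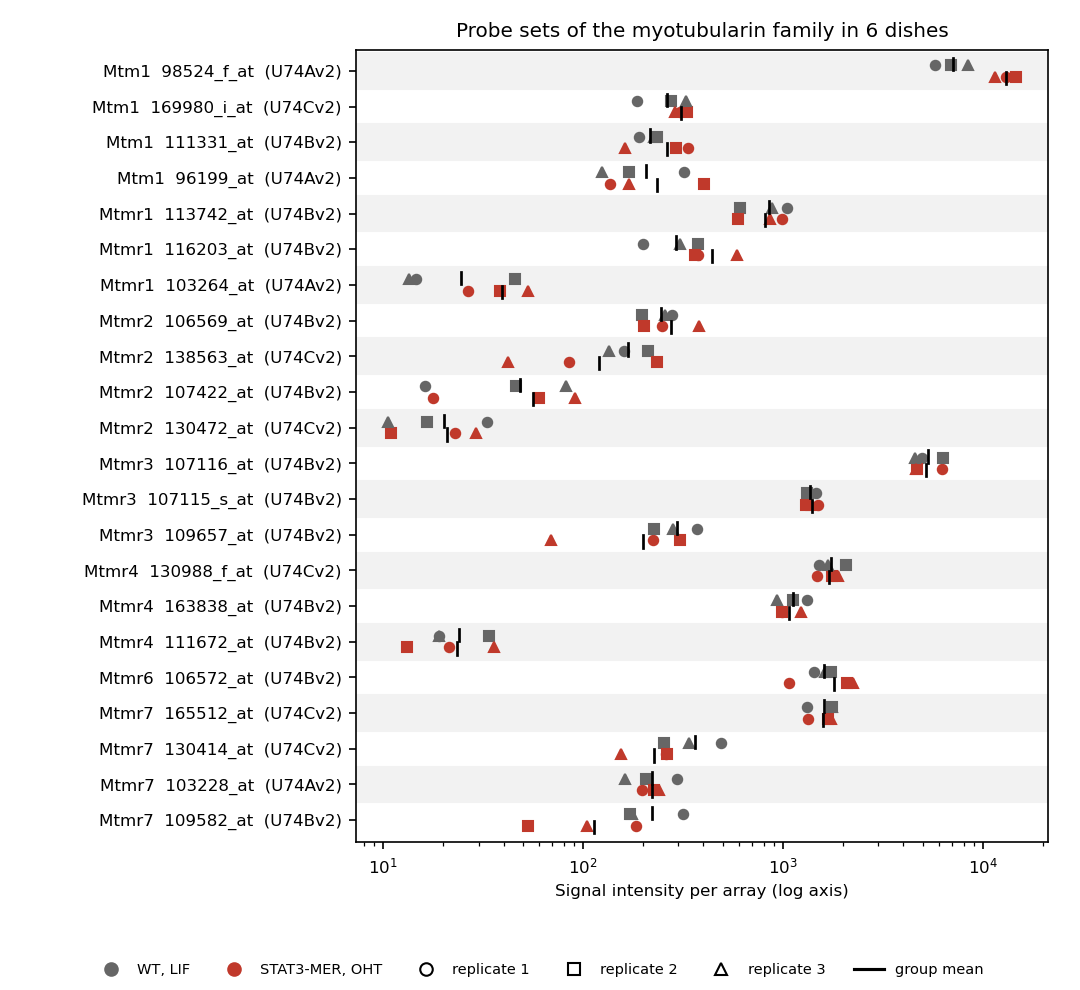
Signal of the 22 probe sets of the 7 genes (rows, with their chip) drawn on a log axis, grey for WT and red for STAT3-MER. The shape of a marker gives the replicate and a black stroke the group mean. Only in the top row, Mtm1 98524_f_at, do the groups not overlap (5774 to 8463 against 11565 to 14677).

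Across the 21 other probe sets of the family, 11 had a log2 fold change above 0 and 10 below, with a median of 0.03 (range -0.85 to 0.55). Of all 36701 probe sets, 51.1% were above 0, and their median was 0.01. None of the 21 passed limma at an adjusted p of 0.05. The background is 0.00272%, since 1 probe set in all passed, Esr1 93945_at, which reads the receptor whose domain is part of STAT3-MER. At an unadjusted p under 0.05 the family also had 0 of 21 against 3.44% of all. The methods' t-test at its own threshold, which is looser than 0.05, found 0 of 21 against 5.47% of all. The criteria of the study's methods (that test with a ratio over 1.5 and a minimum difference) were applied here to the deposited signals. By them 1.1% of all probe sets were higher and 0.872% lower, and 0 of the 21 were among them. At such shares a count of 0 of 21 is near the background. In 0 of 21 did the groups not overlap, against 8.13% of all probe sets. The ratio of means was over 1.5 in 2 and under its inverse in 2, where 13.0% and 11.9% of all probe sets were so.

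Mtmr1, the neighbour of Mtm1, was read by 3 probe sets. The brightest, 113742_at, read 1048, 610 and 883 in WT, against 994, 593 and 864 in STAT3-MER dishes. The 2 triplets span the same range, and the log2 fold change was -0.05 (standard error 0.30). For 116203_at the signals were 199, 375 and 305 in WT, against 376, 362 and 589 in STAT3-MER dishes. This was the highest log2 fold change of the 21, 0.55 (standard error 0.36, 95% interval -0.26 to 1.36, adjusted p = 1.0 by limma), and the groups overlapped between 362 and 375. The third, 103264_at, was dim, at 13.5 to 45.8 in WT, against 26.5 to 53.0 in STAT3-MER dishes.

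Mtmr2, the neuropathy gene whose inner window holds the STAT letters, was read by 4 probe sets, 3 of them below the median signal of their chip. The brightest, 106569_at, gave 278, 198 and 258 in WT, against 249, 201 and 379 in STAT3-MER dishes, so that the log2 fold change was 0.13 (standard error 0.39). Its WT dishes lay within the range of the STAT3-MER dishes except for the lowest. On U74Cv2, 138563_at gave 160, 211 and 134 in WT, against 85.3, 233 and 41.9 in STAT3-MER dishes. Its log2 fold change was -0.59 (standard error 0.56), or -0.17 without STAT3-MER replicate 3, and the STAT3-MER dishes held both the highest and the lowest signal. The remaining ones, 107422_at and 130472_at, read 16.2 to 90.6 and 10.5 to 33.2 over the 6 dishes, with log2 fold changes of 0.13 and 0.03.

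Mtmr3 and Mtmr4 carry a FYVE domain, a fold that in many proteins binds PI3P. Mtmr3 107116_at was as prominent on its chip as the bright Mtm1 probe set on U74Av2, number 123 by mean signal on U74Bv2. It read 4931, 6329 and 4598 in WT, against 6267, 4678 and 4613 in STAT3-MER dishes. Each group had 1 high dish and 2 lower ones at like levels, and the log2 fold change was -0.03 (standard error 0.23, 95% interval -0.55 to 0.48). Mtmr3 107115_s_at had the smallest spread of the family, 1458, 1317 and 1328 against 1502, 1303 and 1404, a coefficient of variation of 5.73% and 7.09%. The highest dish was 1.15 times the lowest, and the log2 fold change was 0.03 (standard error 0.20). A dimmer Mtmr3 probe set, 109657_at, read 373, 227 and 282 in WT, against 222, 305 and 69.4 in STAT3-MER dishes. Its log2 fold change of -0.64 (standard error 0.51) came with 1 STAT3-MER dish far below the other 5, and was -0.13 without that dish (replicate 3).

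Mtmr4 gave log2 fold changes of -0.03, -0.06 and -0.02 in its 3 probe sets. The brightest, 130988_f_at, read 1509, 2061 and 1672 in WT, against 1471, 1757 and 1894 in STAT3-MER dishes. Next, 163838_at gave 1315, 1117 and 932 in WT, against 989, 988 and 1234 in STAT3-MER dishes. In both, the groups covered nearly the same range, and the 95% intervals were -0.56 to 0.50 and -0.58 to 0.46. The third was dim, at 13.2 to 35.8 over the 6 dishes.

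Mtmr6 and Mtmr7 are close relatives that bind the inactive Mtmr9. Mtmr6 106572_at read 1422, 1742 and 1630 in WT, against 1076, 2087 and 2240 in STAT3-MER dishes. The STAT3-MER dishes held the lowest and the 2 highest signals, and the log2 fold change was 0.10 (standard error 0.29, 95% interval -0.55 to 0.75). The brightest Mtmr7 probe set, 165512_at, read 1315, 1754 and 1749 in WT, against 1333, 1679 and 1745 in STAT3-MER dishes, a log2 fold change of -0.02 (standard error 0.24). Replicate 1 was the lowest dish of either group. Some dimmer probe sets of Mtmr7 had WT means above those of STAT3-MER. For 109582_at, WT dishes read 316, 172 and 175 and STAT3-MER dishes 184, 53.0 and 105, a log2 fold change of -0.85 (standard error 0.49, 95% interval -1.95 to 0.24). This was the lowest of the family and had its smallest unadjusted p, 0.113 (limma, adjusted p = 1.0). Mtmr7 130414_at read 491, 253 and 340 in WT, against 261, 264 and 154 in STAT3-MER dishes, a log2 fold change of -0.60 (standard error 0.43). In both, the groups overlapped by a narrow margin. The fourth, 103228_at, read 162 to 296 in WT, against 198 to 239 in STAT3-MER dishes, with a log2 fold change of 0.03.

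The 7 further myotubularins on the chips were read by 15 probe sets, none of which passed the test (0.00272% of all probe sets did), and in 0 of 15 were the groups apart, against 8.13% of all. They were 5 above and 10 below 0, with a median log2 fold change of -0.06 (range -0.47 to 0.55). Mtmr12, an inactive partner of Mtm1, gave 865, 986 and 925 in WT, against 1371, 1148 and 883 in STAT3-MER dishes for its brightest probe set, 164666_f_at (log2 fold change 0.26, standard error 0.24). All 3 Mtmr12 probe sets were above 0, at 0.03 to 0.44. Mtmr9, the inactive partner of Mtmr6 and Mtmr7, gave -0.08 and -0.47 in its 2 probe sets, and Mtmr11, also inactive, -0.45 in 1. Sbf1 and Sbf2, inactive partners of Mtmr2, were read by 1 and 2 probe sets. For the brightest, Sbf2 104427_at, the signals were 1230, 1199 and 1247 in WT, against 1045, 1662 and 901 in STAT3-MER dishes, so that the WT dishes lay inside the STAT3-MER range. Sbf1 had 128 to 470 in WT, against 169 to 762 in STAT3-MER dishes. Mtmr14, an active member, had log2 fold changes of -0.18, -0.03 and -0.02. Mtmr10, which lacks catalytic residues, ran from -0.29 to 0.55 over 3 probe sets.

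**Figure D2:**
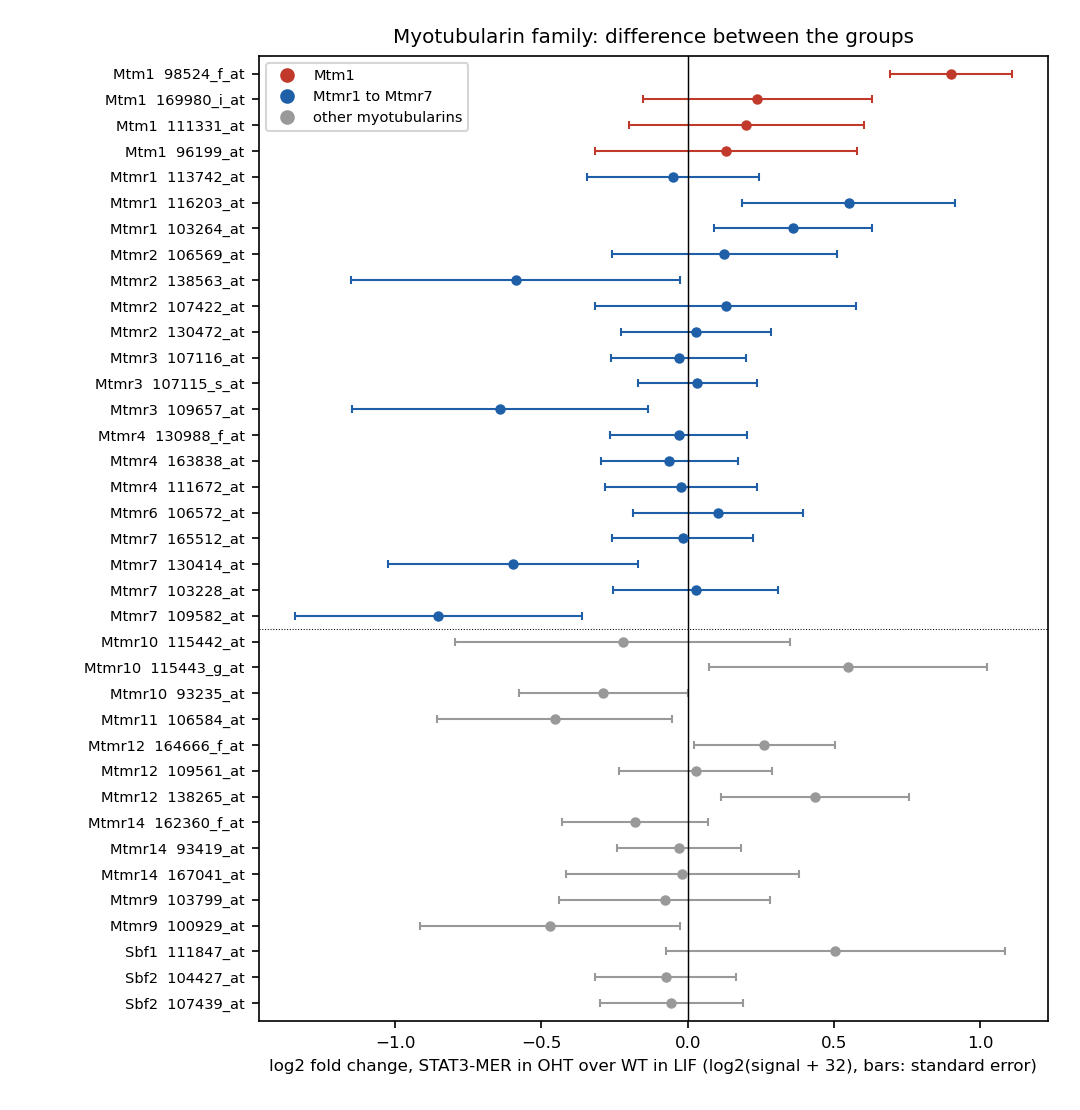
Log2 fold change of STAT3-MER over WT for each probe set of the family (red, Mtm1; blue, Mtmr1 to Mtmr7; grey, the other myotubularins), with bars for 1 standard error. Mtm1 98524_f_at lies at 0.90 and all others between -0.85 and 0.55.

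How the bright Mtm1 probe set stood among comparable ones of U74Av2 was looked at next, as a description. In the naming of these chips the suffix _f_at marks a probe set with oligonucleotides shared by a family of sequences, so its signal may sum several transcripts. Which transcripts 98524_f_at reads was not tested. Nor was it tested for Mtmr4 130988_f_at, Mtmr12 164666_f_at and Mtmr14 162360_f_at, which carry the suffix too. On U74Av2 there were 1075 probe sets with the suffix, of which 8.19% had a ratio over 1.5, against 9.62% of all 12422. At a mean signal of at least 5000, a floor set after the values were seen, 304 probe sets remained, and 3 of them (0.987%) had a ratio over 1.5. These were Esr1 93945_at of the transgene, 98524_f_at and Rhox5 101368_at. The study had listed Mtm1 and Rhox5 for a change over 1.5 on these same arrays. Their standing by ratio is thus a description and no support. Rhox5, a homeobox gene on chromosome X that the study also listed, read 8430, 8354 and 3666 in WT, against 11516, 11885 and 14107 in STAT3-MER dishes. Among the 65 bright probe sets with the suffix _f_at, the next highest ratio was 1.31. The 5 nearest to it in mean signal were Cnn3, Psmb4, Cnbp, Hdgf and Dnajc8, with ratios of 0.834 to 0.999. Of these only Psmb4, a subunit of the proteasome, had groups that did not overlap, and it was lower in STAT3-MER dishes (8696 to 10522 against 10540 to 11821).

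**Figure D3:**
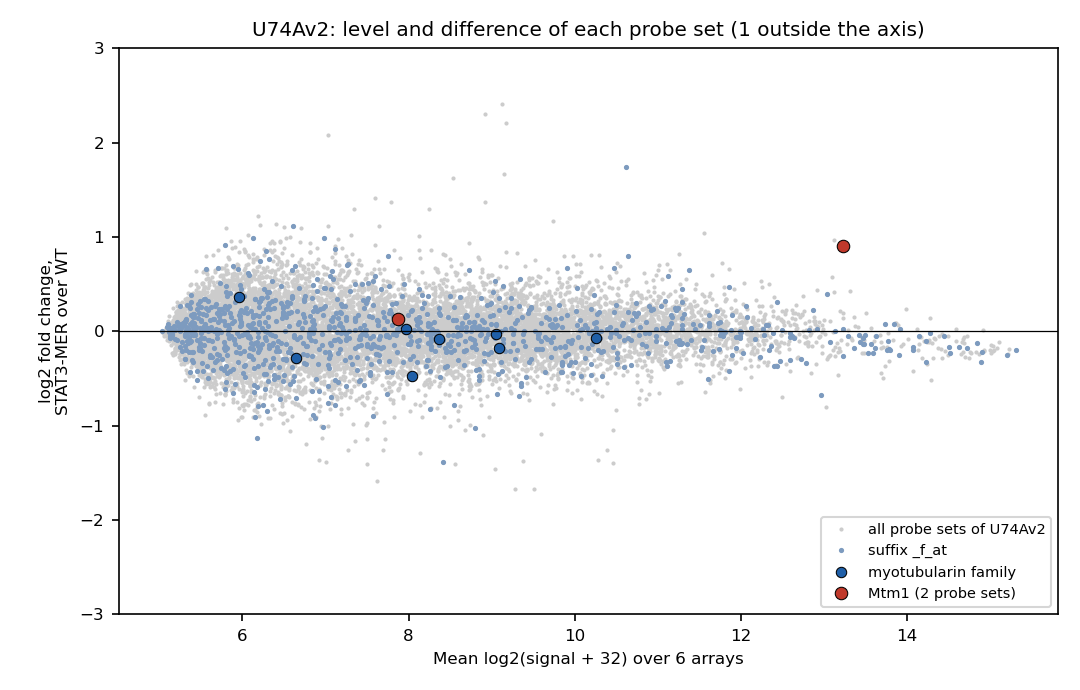
Log2 fold change of STAT3-MER over WT against the mean log2(signal + 32) of each U74Av2 probe set (grey; suffix _f_at in pale blue), with 1 probe set outside the axis. The bright Mtm1 probe set (red, right) lies at 0.90, above nearly all probe sets of its level, while the other Mtm1 probe set (red, left, 0.13) and the relatives (dark blue) lie within the cloud.

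The pattern of 98524_f_at over the 6 U74Av2 arrays was set against 5033 probe sets of 1 gene each with a mean signal of at least 200. The highest Pearson r of log2 signals were those of Hsd17b10, a mitochondrial dehydrogenase (r = 0.988), Pkp4, a plakophilin of cell junctions (0.987), Mea1 (0.974), Slc3a2, the heavy chain of amino acid transporters (0.950), and Cdipt, the synthase of phosphatidylinositol (0.941). With 6 arrays in 2 groups, such values describe mainly which probe sets separate the groups, and they were picked from 5033. Pkp4 read 896, 1125 and 1256 in WT, against 1586, 1773 and 1574 in STAT3-MER dishes, a ratio of 1.51. Cdipt read 746, 873 and 916 in WT, against 1000, 1061 and 930 in STAT3-MER dishes, a ratio of 1.18. In each of the 5, all STAT3-MER dishes were above all WT dishes. Within the family on the same chip, r with 98524_f_at was 0.03 for Mtm1 96199_at, 0.42 for Mtmr1 103264_at and -0.27 for Mtmr7 103228_at.

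Next came 8 lists, read with 1 probe set per gene. They hold enzymes and binding proteins around the same lipids and inositol phosphates, endosome genes, and genes of centronuclear myopathy with partners of myotubularin. Of their 128 genes 114 were measured, 63 with a log2 fold change above 0 and 51 below, and the median was 0.05, against 0.003 over all 15964 genes. None passed the test, where 0.00626% of all genes did. At an unadjusted p under 0.05 there were 4, and 2.89% of all genes were so. Groups that did not overlap were found in 8 of the 114, 7 higher and 1 lower, against 7.52% of all genes. These shares are near the background.

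The class III PI3-kinase complex makes PI3P, the substrate of the myotubularins, and all 9 of its genes were measured (6 above 0, median 0.07). Atg14, its subunit for autophagy, read 188, 242 and 240 in WT, against 335, 352 and 435 in STAT3-MER dishes with 160783_at. The groups were apart, and the log2 fold change was 0.67 (standard error 0.24, unadjusted p = 0.0222, adjusted p = 1.0 by limma). A dim Atg14 probe set, 171210_r_at, was apart in the same direction (9.28 to 17.7 against 26.1 to 58.9), and the other 2 overlapped, with log2 fold changes of 0.15 and -0.15. Pik3c3, the kinase itself, had a log2 fold change of 0.07, and Pik3r4, its regulatory subunit, of -0.42.

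The class I and II PI3-kinases are the other classes of PI3-kinase. Of 12 genes 9 were measured (5 above 0, median 0.02). Pik3r1, the regulatory subunit p85α, read 3758, 2308 and 3891 in WT, against 1018, 1371 and 1918 in STAT3-MER dishes with 129853_at. Every STAT3-MER dish was below every WT dish, and the log2 fold change was -1.20 (standard error 0.31, unadjusted p = 0.00325, adjusted p = 1.0 by limma). Its other 3 probe sets, all dimmer, did not show this: 113019_at read 104, 292 and 346 in WT, against 310, 497 and 653 in STAT3-MER dishes (log2 fold change 0.97, standard error 0.47), and the others gave 0.40 and -0.15. The probe sets of Pik3r1 therefore disagreed in direction.

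The PIKfyve complex turns PI3P into phosphatidylinositol 3,5-bisphosphate. Its 3 genes had log2 fold changes of -0.21 (Pikfyve, dim), 0.22 (Vac14) and -0.20 (Fig4, 2973 to 3733 in WT, against 2508 to 3379 in STAT3-MER dishes). Among proteins that bind these lipids, 35 of 38 were measured, 21 above 0, with a median of 0.06. Zfyve26, a FYVE protein, came first by p, with 1049, 655 and 1339 in WT, against 526, 729 and 417 in STAT3-MER dishes. Its groups overlapped (log2 fold change -0.81, unadjusted p = 0.0335, adjusted p = 1.0 by limma). Wdr45 and Fgd1, the next, were at 0.56 and 0.57.

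Other phosphatases of phosphoinositides or of soluble inositol phosphates were measured for 16 of 21 genes, 8 above and 8 below 0. Synj2, a synaptojanin, had the smallest p (log2 fold change -0.83, unadjusted p = 0.0464, adjusted p = 1.0 by limma), with 77.8 to 146 in WT, against 23.3 to 82.4 in STAT3-MER dishes. This probe set, 97962_at, was dim and its groups overlapped. A still dimmer Synj2 probe set, 100676_at, had a log2 fold change of -0.18, also with overlap. The 5-phosphatases Inpp5a and Inpp5d were at 0.49 and 0.48. Inpp5b, Inpp5k and the 4-phosphatase Sacm1l, named after their values were seen, had STAT3-MER dishes above all WT dishes with log2 fold changes of 0.38, 0.43 and 0.36. Their unadjusted p were 0.127, 0.1 and 0.138 (limma), and 7.52% of all genes had groups that did not overlap. The kinases that add phosphate at the 4 or 5 position were measured for 10 of 11 genes (7 above 0, median 0.14, or 0.02 without WT replicate 3). Among them Pip4k2c read 387, 358 and 271 in WT, against 501, 469 and 447 in STAT3-MER dishes (log2 fold change 0.46, standard error 0.22), with no overlap.

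Genes of early endosomes and Rab GTPases were 11 above and 11 below 0 (22 of 24 measured). Rab5a, which recruits the class III kinase to early endosomes, read 2284, 2805 and 2745 in WT, against 4079, 3456 and 2744 in STAT3-MER dishes, and the groups met at the lowest STAT3-MER dish (log2 fold change 0.38, standard error 0.20). Rab7 and Vps33a, which act at late endosomes, were at 0.42 and 0.56. Of the genes of centronuclear myopathy and the partners of myotubularin, 10 of 11 were measured, 4 above 0, with a median of -0.14. Bin1 and Dnm2, which shape membranes and are mutated in other forms of the disease, were at -0.26 and -0.18. Dnm2 was dim, with signals of 11.5 to 47.9 over all dishes. Ryr1, the calcium channel of muscle, was dim, with 38.0 to 76.2 in WT, against 76.3 to 102 in STAT3-MER dishes, so that the groups barely failed to overlap. Desmin (Des), a filament protein bound by myotubularin, was at 0.30 (standard error 0.56).

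**Figure D4:**
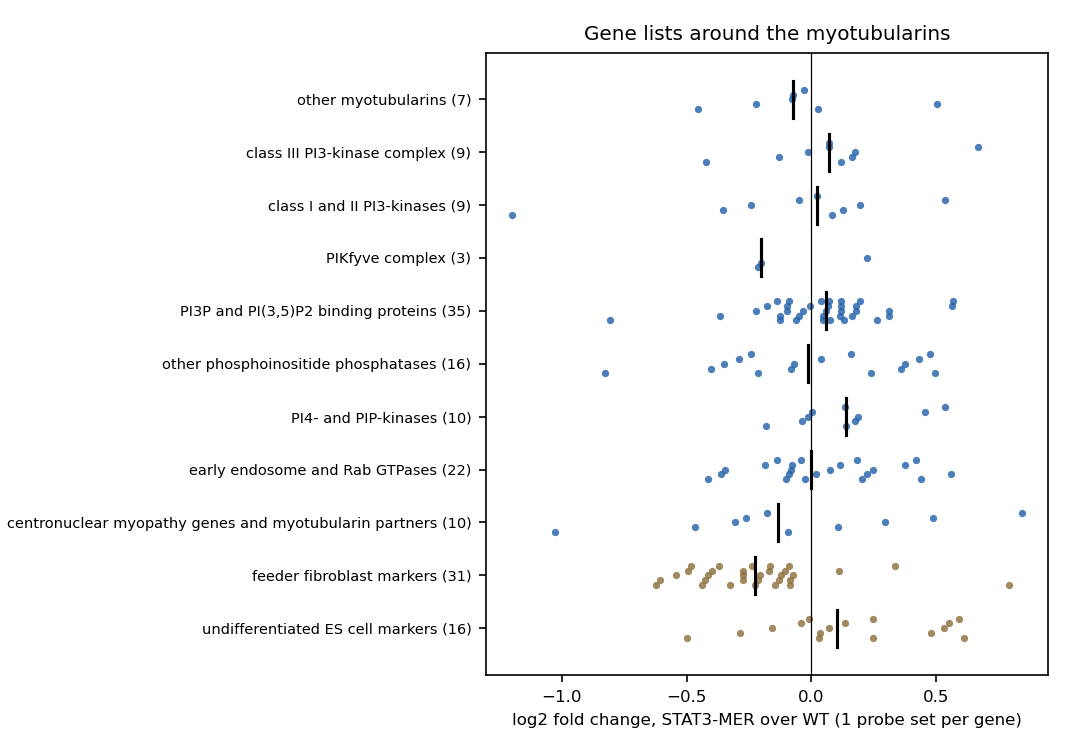
Log2 fold change of STAT3-MER over WT for the genes of each list, with 1 dot per gene and black strokes for medians. Each gene has 1 probe set, and brackets give the number of genes. Cell type markers are brown and all other lists blue. The medians of the blue lists lie between -0.20 and 0.14, and the lowest dot is Pik3r1 at -1.20.

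Markers of feeder fibroblasts stood beside these values as follows. Of 31 measured genes, 28 were below 0, with a median log2 fold change of -0.22. This direction rested on 1 dish, since the median turned to 0.24 without STAT3-MER replicate 1 and was -0.54 without WT replicate 2 and -0.05 without WT replicate 3. The markers of undifferentiated ES cells had a median of 0.10 over 16 genes. The summed feeder signal on U74Av2 was 72294, 37182 and 86765 in WT, against 22322, 83275 and 72891 in STAT3-MER dishes, so that both groups held a low dish. The part of feeder RNA in the values of the family was not tested.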

How the data were processed

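Gene expression was measured in 3 WT and 3 STAT3-MER dishes on 3 chips, as 18 arrays. The authors hybridized the amplified RNA and deposited a linear signal intensity for each probe set of an array, without detection calls. MAS5 is named in the submitters' processing notes without a version, and the authors had scaled the arrays to trimmed means of 500.1 to 500.3. The groups and replicate numbers come from the labels. For 1 STAT3-MER array of U74Av2 the label gives no number, and the free number 2 was used. The labels of 1 WT array name 2 chips, and it was taken as U74Cv2, whose table holds its column.

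Of 36899 probe sets, 198 controls were left out. Arrays of a chip were scaled to one trimmed mean (2% left out on each side). Then log2(signal + 32) was compared with limma 3.58.1 in R 4.3.3 (lmFit, eBayes with a trend, two-sided, 1 fit per chip). The fit was tested on simulated data with changes larger than any of the family, which does not show how it finds small ones. Benjamini-Hochberg adjustment ran over 36701 probe sets, with a threshold of 0.05 and no filter on dim ones. Signals of different probe sets depend on their oligonucleotides, and were not compared as amounts of RNA. With 3 dishes a group, the number of arrays limits the precision. The criteria of the study's methods were applied to the same signals as "the methods' t-test". The study had used model values from the dCHIP software instead, so the counts given here are not those of its lists.

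Gene names come from GEO's annotation of the chips (29131 probe sets with 1 gene, 724 with several, 6846 with none), updated through RefSeq, which also gave positions and promoter windows. In gene lists each gene entered by 1 probe set, without a cross-hybridization suffix where possible and then the brightest. The members, the lists and the named genes were chosen with earlier results of these data known. Named were all probe sets of the family, genes of lists of up to 12, the 3 genes of smallest p in longer lists, the 5 most alike in pattern and the 5 nearest _f_at probe sets in signal. The exceptions are Esr1 and Rhox5, named for their ratios, and those said to be so in the text. Alternatives were median and quantile scaling, no scaling, pseudocounts of 8 and 100, a mean signal of at least 200, a fit without trend, adjustment within a chip, a replicate block, the averaged probe sets of each gene, and each dish left out in turn. Sequences of the oligonucleotides and proteins were not used here.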

Additional observations from a re-analysis of the deposited data

How the results depend on the processing

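None of the 21 tested probe sets of the family was called under any of the 15 alternative fits that held it. The fit at a mean signal of at least 200 held 15 of the 21, and its values cover those alone. The bright Mtm1 probe set, described with no test, had a log2 fold change of 0.76 to 1.04 with each dish left out and of 0.89 to 0.95 otherwise. Of the 21, 8 kept their sign everywhere, though not their size: with 1 dish left out in turn, Mtm1 111331_at ranged from 0.014 to 0.48, Mtm1 169980_i_at from 0.037 to 0.39, Mtmr1 103264_at from 0.23 to 0.61, Mtmr1 116203_at from 0.32 to 0.73, Mtmr2 138563_at from -1.09 to -0.17, Mtmr3 109657_at from -1.0 to -0.13, and Mtmr7 109582_at and 130414_at from -1.19 to -0.51 and from -0.81 to -0.37. With other scalings Mtmr3 107116_at turned to 0.007 (median) and Mtmr2 130472_at and Mtmr7 165512_at to -0.044 and 0.003 (quantile). With 1 dish left out in turn, 13 changed sign: Mtm1 96199_at ranged from -0.28 to 0.46, Mtmr1 113742_at from -0.26 to 0.16, Mtmr2 106569_at from -0.10 to 0.31, 107422_at from -0.19 to 0.50 and 130472_at from -0.11 to 0.20, Mtmr3 107115_s_at from -0.016 to 0.083 and 107116_at from -0.17 to 0.11, Mtmr4 111672_at from -0.18 to 0.12, 163838_at from -0.18 to 0.057 and 130988_f_at from -0.13 to 0.093, Mtmr6 106572_at from -0.086 to 0.43, and Mtmr7 103228_at from -0.15 to 0.23 and 165512_at from -0.15 to 0.10. The median of the 21 ranged from -0.090 (without STAT3-MER replicate 3) to 0.052.

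Over all probe sets, leaving out 1 dish gave 1 to 2 called higher (2 without WT replicate 3) and 0 lower. The methods' criteria were a ratio over 1.5 with a difference and an unadjusted t-test. They gave 405 higher (1.10%) and 320 lower (0.872%), with 0 of the 21. Over all probe sets 0 passed the t-test after Benjamini-Hochberg adjustment (2006 before it at the methods' threshold, looser than 0.05, or 5.47%). Medians of lists ranged, with 1 dish left out, from 0.047 to 0.183 (class III PI3-kinase complex), -0.195 to 0.113 (class I and II PI3-kinases), -0.281 to 0.175 (PIKfyve complex), 0.007 to 0.083 (lipid-binding proteins), -0.269 to 0.102 (myopathy genes and partners), 0.023 to 0.164 (PI4- and PIP-kinases), -0.119 to 0.020 (other myotubularins), -0.019 to 0.041 (other phosphatases), -0.033 to 0.051 (endosome and Rab GTPases), 0.046 to 0.332 (ES cell markers) and -0.542 to 0.238 (feeder markers, above 0 without STAT3-MER replicate 1). With probe sets of a mean signal of at least 200 alone, the medians of class I and II PI3-kinases and of other phosphatases moved to -0.356 and 0.159, and with the probe sets of each gene averaged that of lipid-binding proteins to -0.028. The cause was not tested.

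Same-numbered dishes deviated together by correlations between -0.335 and 0.287 on U74Av2, between 0.130 and 0.211 on U74Bv2, and between 0.070 and 0.132 on U74Cv2. All 3 pairs were thus over 0.1 on U74Bv2 but not on the other chips, and a pairing by these numbers over the whole set was neither given by the labels nor met. On U74Av2, where 1 array has no number in its label, the closest dishes were WT 1 with STAT3-MER 2 (0.459) and WT 2 with STAT3-MER 1 (0.413), so the block there may join dishes that do not belong together. With the replicate number as a block, 1 probe set was called higher and 0 lower, 0 of the family were called and their smallest unadjusted p was 0.0818. On U74Bv2 and U74Cv2 each array correlated best with its own number, and on U74Av2 replicate 3 alone did. Dim probe sets limit what can be seen, since 8 of the 21 lay below the median signal of their chip.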

Other observations

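The genes around Mtm1 and Mtmr1 on chromosome X were read beside them. Tmem185a, Cd99l2, Hmgb3 and Gpr50, within 4 genes of Mtm1 in the RefSeq order, had U74Av2 ratios of STAT3-MER to WT of 0.909, 1.03, 0.874 and 0.866. On U74Cv2 a dim Hmgb3 probe set had a ratio of 1.39, the other way, and one of Gpr50 0.808. Hmgb3, a chromatin protein of stem cells, read 2213, 2943 and 3087 in WT, against 3130, 1974 and 2103 in STAT3-MER dishes. Tmem185a read 646, 574 and 743 in WT, against 570, 638 and 576 in STAT3-MER dishes. In all 6 probe sets of these 4 genes the groups overlapped, and none passed limma (adjusted p = 1.0 for each).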
